A study of Mus musculus with 6 samples.

Results

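Cells with at least 1 unique molecular identifier (UMI, a tag that counts each captured RNA molecule once) of Ly6a and at least 1 of Cd34 are described here among cultured mouse muscle-derived stem/progenitor cells. They numbered 5136 of the 60325 cells that had 5000 or more UMIs and under 15% of UMIs from mitochondrial genes, or 8.51%. They were thus chosen by the measured counts of these 2 genes, whose levels and shares are given as a description. The cells came from 3 populations labelled young and 3 labelled old, each 1 sample and 1 biological replicate. Slowly adhering cells had been enriched from enzymatically dissociated skeletal muscle by serial transfer onto collagen-coated flasks, were then cultured in proliferation medium with serum and chick embryo extract, and were loaded on droplets for sequencing of the 3′ ends of RNA cell by cell. The labels give no age, sex, strain or genotype, no passage number and no number of animals per population, and no treatment beyond the culture that all 6 samples shared. A population is therefore a cultured, selected line of cells and not a sample of the muscle it came from, and Ly6a and Cd34 protein was not measured.

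Ly6a encodes Sca-1, a small glycosylphosphatidylinositol-anchored protein of the Ly6 family, and lies on the minus strand of chromosome 15 at 74994877 to 74998031 in GENCODE M21 (GRCm38, the build named mm10 in the submitters' processing notes). Cd34, on chromosome 1 at 194938819 to 194961279, encodes a transmembrane sialomucin that affects cell adhesion. In skeletal muscle both proteins are used as surface markers: Sca-1 of fibro-adipogenic progenitors and endothelial cells, and CD34 of those cells and of quiescent satellite cells, the Pax7-positive stem cells of muscle. Cultured muscle-derived progenitor lines are often sorted for both. When myogenic cells differentiate they express Myog and then fuse and assemble sarcomeres, the contractile units.

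Double-positive cells were a minority in every population, and their number differed widely between populations. In the young populations they numbered 154 of 8444 cells in replicate 1, 77 of 10650 in replicate 2 and 719 of 10633 in replicate 3. In the old populations they numbered 1056 of 9906, 2442 of 8513 and 688 of 12179. These are 1.82% (Wilson 95% interval 1.56 to 2.13%), 0.723% (0.579 to 0.903%) and 6.76% (6.30 to 7.26%) in the young replicates, and 10.7% (10.1 to 11.3%), 28.7% (27.7 to 29.7%) and 5.65% (5.25 to 6.07%) in the old. The intervals cover counting error only. Old replicate 2 was the highest and alone held 47.5% of all double-positive cells, and young replicate 3 lay above old replicate 3.

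The chance of seeing both transcripts grows with the number of UMIs captured from a cell. In old replicate 2 the double-positive share was 9.91% among cells of 5000 to 10000 UMIs and 64.1% among cells of 40000 or more, and in young replicate 1 it was 0.110% and 11.9% over the same ranges. Median totals in double-positive cells ran from 16746 to 22647 UMIs by sample, against 12202 to 18692 in cells with neither transcript. The share was therefore also taken after every cell had been thinned at random to 5000 UMIs, which left out 0 to 11 cells per sample. It was then 0.272%, 0.0470% and 0.7995% in the young replicates, and 2.88%, 6.15% and 1.10% in the old. At equal depth each old population lay above each young one. The mean was 3.37 ± 2.56% (SD, n = 3) in old and 0.373 ± 0.386% (n = 3) in young populations. No test is given for these shares, since the same counts chose the cells.

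**Figure D1:**
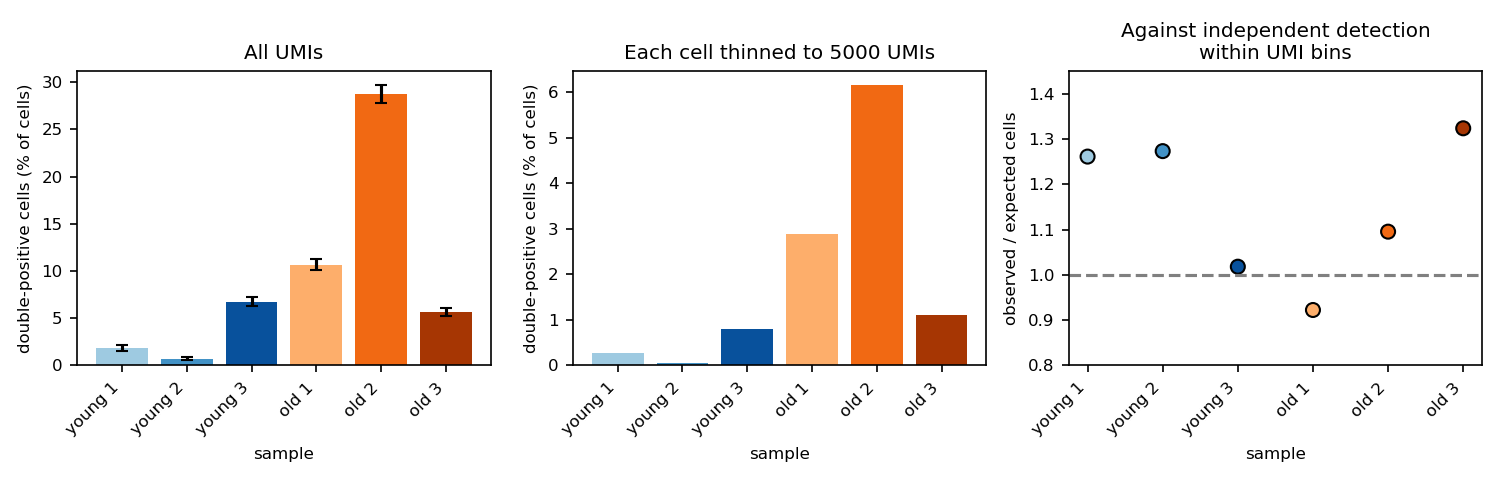
Double-positive cells by sample. The left panel plots their share of cells at full depth with Wilson 95% intervals, the middle panel the share after thinning each cell to 5000 UMIs, and the right panel the observed number over the number under independent detection within bins of total UMIs (dashed line at 1). Old replicate 2 is highest at both depths (28.7% and 6.15%), and the ratio runs from 0.923 in old replicate 1 to 1.32 in old replicate 3.

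Free RNA in the droplets can place UMIs in cells that do not express a gene. Cells with 5% or more of their thinned UMIs from sarcomere genes served as a class that should hold little of either transcript. There were 108, 228 and 24 such cells across the young replicates and 15, 62 and 1285 in the old, and 0 of them were double-positive at 5000 UMIs in any sample. A count of 0 allows a share of up to 0.233% among the 1285 cells of old replicate 3 but 4.84% among the 62 of old replicate 2, 12.5% among the 24 of young replicate 3 and 20% among the 15 of old replicate 1. In the sarcomere-rich cells, Ly6a UMIs were found in 3.23% in old replicate 2 and 0.934% in old replicate 3, and Cd34 UMIs in 0.623% in old replicate 3. All other such shares were 0. In the remaining cells of old replicate 2, Ly6a was found in 33.8% and Cd34 in 14.7%, and in those of old replicate 3 in 9.31% and 7.98%. Median totals were 20772 UMIs in the sarcomere-rich cells and 20101 in the remaining cells of old replicate 2, and 13983 and 13095 in old replicate 3. Barcodes of fewer than 2000 UMIs, which were not kept as cells, had 90.6 CPM of Cd34 in old replicate 1, from 11 UMIs, against 119 CPM over its kept cells, and 62.0 CPM of Ly6a in old replicate 2, from 16 UMIs, against 125 CPM. Their part in the double-positive counts was not tested. Each pair of samples shared between 24 and 41 cell barcodes.

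Many members held few copies: exactly 1 UMI of each gene was seen in 44.2%, 77.9% and 47.7% of members across the young replicates and in 18.9%, 13.7% and 42.9% in the old. Just outside the rule lay cells with 1 Ly6a UMI and no Cd34 (871, 289 and 997 across the young replicates and 315, 1011 and 1194 in the old) and cells with 1 Cd34 UMI and no Ly6a (348, 1207 and 1764, and 1986, 694 and 1069). Ly6a levels among members were 96.5, 77.8 and 64.2 CPM (a gene's UMIs scaled to a common library total) across the young replicates and 90.1, 221 and 88.4 CPM in the old. Cd34 levels were 58.2, 48.9 and 60.8 CPM across the young replicates and 155, 80.3 and 83.6 CPM in the old. Old replicate 2 thus had the highest Ly6a level and old replicate 1 the highest Cd34 level, and these 2 populations held the most members. Ly6a was unevenly spread over cells: in old replicate 2, 15.7% of members had 10 or more Ly6a UMIs, with a highest value of 44, and 61.1% of all its cells had at least 1, where the same number of UMIs spread evenly by depth would reach 90.3%. A single member of young replicate 2 carried 62 Ly6a UMIs.

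At full depth, double-positive cells were somewhat more frequent than independent detection of the 2 transcripts would give in 5 of the 6 populations. This is a description with no test. Within bins of 0.25 log2 of total UMIs, independent detection would give 122, 60.5 and 706 double-positive cells across the young replicates and 1145, 2229 and 519.6 in the old. The observed numbers were 1.26, 1.27 and 1.02 times these across the young replicates and 0.923, 1.10 and 1.32 times in the old. Old replicate 1, in which 68.6% of all cells had Cd34 UMIs, was the population with fewer double-positive cells than under independence at full depth. When cells with a Myog UMI or with 1% or more of their UMIs from sarcomere genes (called differentiating cells) were left out, a choice made after seeing the data, the ratios were 1.24, 1.17 and 1.00 across the young replicates and 0.919, 1.05 and 1.08 in the old. The ratio of old replicate 3, where 56.8% of cells were left out, moved most.

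To describe the state of these cells, each was paired with a cell of the same sample that had neither transcript and lay in the same 0.25 log2 bin of total UMIs. Pairing kept 154, 77 and 708 members across the young replicates and 848, 1691 and 654 in the old, and counts were summed per sample and class. Among the genes lower in double-positive cells than in their matched double-negative neighbours were Myh3, Mb and Myh1, which encode muscle proteins, and among those higher were Ly6c1, Ly6e, Nqo1 and Nid1. Of 12898 genes tested with edgeR's quasi-likelihood test, 60 were higher (0.465% of genes tested) and 109 lower (0.845%) at an adjusted p below 0.05. Ly6a and Cd34 were left out of the test, and 90 of the 169 genes (1.31% of those tested) had the same sign in all 6 samples. Leaving out 1 sample gave 42 such genes for old replicate 2, 74 for old replicate 3, 112 for young replicate 1 and 395 for young replicate 3. The median log2 fold change over all genes tested was 0.01. A rule used below names 24 genes with the largest changes, 12 each way. They were taken from called genes with a mean log2 CPM above 4 and one sign in all 6 samples. For these 24 the shared sign over samples was thus a condition of naming and is no finding.

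Myh3, the embryonic myosin heavy chain, stood at 6.37, 7.46 and 1.40 CPM in double-positive cells of the young replicates and 0.435, 5.23 and 31.9 CPM in the old. In the matched double-negative cells it stood at 7.89, 54.3 and 7.59 CPM across the young replicates and 9.23, 125 and 264 CPM in the old. The level was lower in double-positive cells of all 6 samples, least so in young replicate 1, and Myh3 fell by 3.44 on the log2 scale (SE 0.50, edgeR adjusted p = 0.0473). Mb, which encodes the oxygen store myoglobin, stood at 0.607, 3.196 and 0.582 CPM in double-positive against 1.82, 17.2 and 2.51 CPM in double-negative cells of the young replicates. In the old replicates it stood at 0.0725, 2.59 and 19.9 against 2.04, 43.8 and 136 CPM. Mb fell by 3.28 (SE 0.28, edgeR adjusted p = 0.00167), again with the lower level in double-positive cells of every sample.

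Myh1, an adult fast myosin heavy chain, stood at 0.303, 7.46 and 0.175 CPM against 2.43, 34.4 and 0.759 CPM across young replicates and at 0.362, 8.22 and 5.48 against 2.62, 58.9 and 58.9 CPM in the old. It fell by 3.01 (SE 0.16, edgeR adjusted p = 1.04e-05). Nmrk2, a muscle nicotinamide riboside kinase, fell by 2.17 (SE 0.15, edgeR adjusted p = 7.15e-05), with its highest levels in old replicate 2 (37.3 against 158 CPM). The other genes named by the rule on size and shared sign of change were Mybph, a myosin-binding protein (log2 change -3.40), Sct, the hormone secretin (-2.16), Ppp1r27, a protein phosphatase regulator (-2.04), Dlg2, a synaptic scaffold (-1.47), Pkia, an inhibitor of protein kinase A (-0.75), Chrnd, the acetylcholine receptor delta subunit (-0.71), Ndufa9 of respiratory complex I (-0.35) and Diablo, a mitochondrial pro-apoptotic factor (-0.35). Their edgeR adjusted p-values ran from 0.0187 (Ppp1r27) to 0.0395 (Mybph). Sct was below 5 CPM in both classes of 5 samples, and its higher levels were those of old replicate 3 (61.4 against 185 CPM).

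Among the genes that rose, Ly6c1, a Ly6 family member on chromosome 15 at 75044018 to 75048830, had a large change. It stood at 3.95, 8.52 and 15.8 CPM in double-positive cells of the young replicates and 3.77, 20.4 and 2.67 CPM in the old. Double-negative cells held 0.607, 1.08 and 6.77 CPM across the young replicates and 0.872, 3.68 and 0.448 CPM in the old. Double-positive cells were higher in all 6 samples, by a log2 change of 1.98 (SE 0.21, edgeR adjusted p = 0.00126). Ly6e, a family member with a role in viral entry and restriction on the same chromosome at 74955051 to 74959905, stood at 58.0, 55.4 and 50.3 against 50.1, 27.4 and 40.4 CPM across the young replicates and 78.5, 51.2 and 42.5 against 52.5, 22.4 and 22.5 CPM in the old. Its log2 change was 0.67 (SE 0.12, edgeR adjusted p = 0.0332). Reads of the Ly6 genes could be shared among close paralogs, including Ly6a itself, and the part of this in the Ly6c1 and Ly6e values was not tested.

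Nqo1, a quinone reductase of the oxidative stress response, stood at 123, 20.2 and 55.5 CPM against 86.2, 6.99 and 45.8 CPM across young replicates and at 160.4, 39.3 and 163 against 87.1, 20.8 and 67.8 CPM in the old. It was higher in double-positive cells of all 6 samples (log2 change 0.78, SE 0.12, edgeR adjusted p = 0.0243). Slc7a11, the cystine importer, had 45.2, 35.7 and 17.9 against 37.6, 26.3 and 13.8 CPM across the young replicates and 45.3, 24.03 and 28.5 against 27.8, 15.03 and 15.4 CPM in the old (log2 change 0.55, SE 0.08, edgeR adjusted p = 0.00686). Nid1, a basement membrane protein, had 62.2, 7.99 and 49.5 against 45.5, 6.99 and 39.9 CPM across the young replicates and 87.9, 57.6 and 61.5 against 52.3, 35.3 and 29.3 CPM in the old (log2 change 0.62, SE 0.09, edgeR adjusted p = 0.00654).

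The remaining genes named by the rule among those that rose were Igfbp6, a binding protein of insulin-like growth factor (0.78), Cgnl1, a cell junction protein (0.61), Abcc4, a transporter (0.61), Prkcb, a protein kinase C (0.58), Pdlim2 (0.56), Prr13 (0.51), Dpysl2, a microtubule regulator (0.49), and Slc48a1, a heme transporter (0.49). Their edgeR adjusted p-values ran from 0.00726 (Prr13) to 0.0332 (Slc48a1). Young replicate 3 had a smaller ratio than any other sample for 9 of the 12 genes that rose, on the log2 scale with a pseudocount of 1 CPM. Of the 24 genes, 3 that rose (Nid1, Slc7a11, Prr13) and 4 that fell (Mb, Myh1, Nmrk2, Ppp1r27) stayed below an adjusted p of 0.05 when any 1 of the 6 samples was left out. The other 17 did not, most often without old replicate 2, with adjusted p-values for Nqo1 of 0.150 without it and 0.0705 without old replicate 1. For Ly6e the adjusted p was 0.0852 without young replicate 2, 0.0739, 0.0729 and 0.148 without old replicates 1, 2 and 3. Myh3 had adjusted p-values between 0.0558 and 0.212 without young replicates 2 or 3 or any old replicate.

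**Figure D2:**
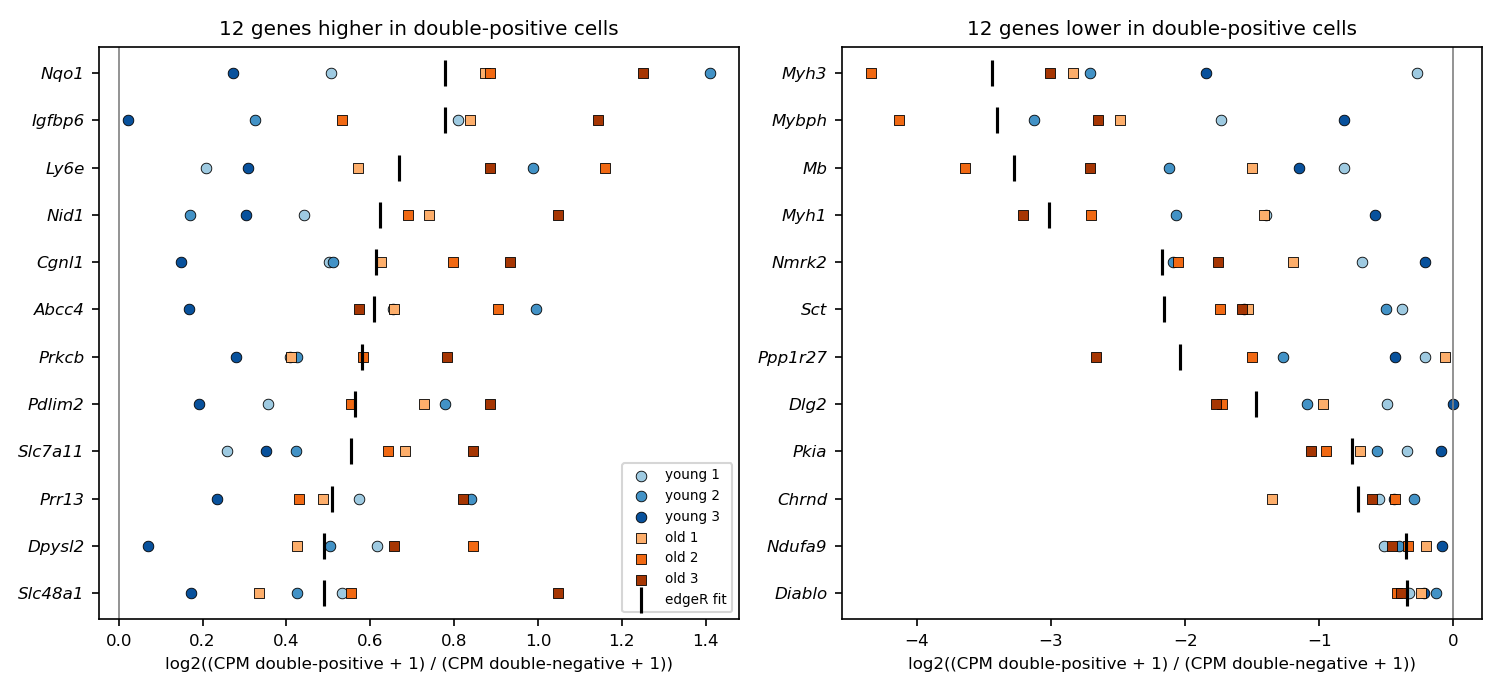
Log2 ratios of double-positive over matched double-negative cells for the 24 genes named by the rule, with a pseudocount of 1 CPM. Points are the 6 samples (circles young, squares old) and black bars the edgeR fold changes. All points of the left panel lie above 0 and all of the right panel at or below it, with Dlg2 in young replicate 3 close to 0. The side was set by the rule, which required one sign in all 6 samples.

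All 19 sarcomere genes had a log2 fold change below 0 (median -2.71, range -4.13 to -0.83) and 3 of them fell by the test, Ckm (creatine kinase), Myh3 and Myh8. All 16 genes of myogenic commitment were below 0 (median -1.11), with Chrnd, Myf6 and Mymx, which encodes a fusion peptide of muscle cells, falling by the test. Over all genes tested, 0.845% were called lower. Mymx stood at 0.911 CPM in double-positive and 0.607 CPM in double-negative cells of young replicate 1, the single sample in which it was not lower, and at 25.4 against 148 CPM in old replicate 3. Myog itself stood at 3.34, 125 and 13.04 against 12.7, 303 and 34.98 CPM across young replicates and at 0.362, 39.0 and 192 against 15.3, 467 and 1386 CPM in the old. Mymx had an adjusted p of 0.0987 without old replicate 1, Chrnd 0.115 and Myf6 0.307 without old replicate 3, and Myh8 0.108 without old replicate 2. The Myog log2 change of -2.56 (SE 0.50) had an edgeR adjusted p of 0.0951. The lists were chosen with earlier results of these data known.

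Among 17 myogenic progenitor genes tested, 12 were below 0 and 5 above (median -0.08), and 0 passed the edgeR test, beside 1.31% of all genes tested, so a count of 0 says little in a list of this size. Pax7 stood at 3.95, 66.1 and 0.0582 against 11.8, 42.5 and 0 CPM across young replicates and at 6.88, 20.1 and 35.5 against 25.6, 24.3 and 25.5 CPM in the old. Samples thus went in both directions for Pax7, and young replicate 3 held almost none of it in either class. Myf5, an early myogenic factor, was at 0 in both classes of young replicate 1 and between 10.7 and 60.3 CPM in double-positive cells of the other 5. Myod1 stood at 18.2, 458 and 40.6 CPM in double-positive cells of the young and at 24.9, 369.9 and 683 CPM in those of the old.

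Of 14 fibro-adipogenic genes tested, 12 were above 0 (median 0.55), and Gsn and Col1a1 rose by the test, beside 0.465% of all genes called higher. Gsn, an actin-severing protein, stood at 235, 230.1 and 173 against 223, 199 and 150.4 CPM across young replicates and at 165, 342 and 243 against 133, 283 and 164 CPM in the old (log2 change 0.25, SE 0.05, edgeR adjusted p = 0.0479). Leaving out any 1 sample put its adjusted p between 0.0507 and 0.165. Col1a1 (log2 change 2.21, SE 0.29, edgeR adjusted p = 0.00732) rested on old replicate 3, with 33.0 against 7.54 CPM, and was below 1 CPM in both classes of the other 5 samples. Of 19 extracellular matrix genes 17 were above 0 (median 0.25) and 1 rose, beside the same 0.465%. This was Sparc, a secreted matrix glycoprotein, with 252, 288 and 463 against 218, 239 and 391 CPM across the young replicates and 481, 767 and 509.8 against 401, 657 and 370.1 CPM in the old (log2 change 0.25, SE 0.04, edgeR adjusted p = 0.0101).

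Few members of the remaining lists passed, and their counts stand beside 0.465% of all genes called higher. Of 9 tested genes of the Ly6 and uPAR family, 7 were above 0 (median 0.46) and the 2 described above rose. Of 23 stem and progenitor surface markers 16 were above 0 (median 0.23) and 2 rose. Sdc3, a heparan sulfate proteoglycan of satellite cells, rose by 0.42 (SE 0.09, edgeR adjusted p = 0.0473), and Pdgfrb, a pericyte and mesenchymal receptor, by 1.35 (SE 0.28, edgeR adjusted p = 0.0470). Both calls were lost without old replicate 2 (adjusted p = 0.257 and 0.224) and in 3 other leave-one-out fits each. Cxcl1, a neutrophil chemokine, stood at 7.59, 8.52 and 9.49 against 1.82, 1.61 and 5.84 CPM across young replicates and at 16.2, 11.7 and 1.63 against 6.91, 2.19 and 0.373 CPM in the old (log2 change 1.54, SE 0.24, edgeR adjusted p = 0.0158). Its adjusted p was 0.0553 without young replicate 1 and 0.0550 without old replicate 3. Ifitm3, an interferon-inducible membrane protein, rose by 0.27 (SE 0.05, edgeR adjusted p = 0.0243) as the 1 called of 20 interferon response genes, of which 16 were above 0, with an adjusted p of 0.0907 without young replicate 2 and 0.111 without old replicate 2.

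Abcc9, of the pericyte list, and Erbb3, of the Schwann cell list, fell, by 2.15 and 1.73 on the log2 scale (edgeR adjusted p = 0.0458 and 0.0371). Both were under 10 CPM in double-positive cells of all 6 samples, and had adjusted p-values of 0.345 without old replicate 2 (Abcc9) and 0.169 without old replicate 3 (Erbb3). Of 9 tested pericyte and smooth muscle genes, 5 were above 0 and 4 below (median 0.11), and Pdgfrb, given above, rose. Of 5 tested Schwann genes, 2 were above 0 and 3 below (median -0.05). In the lists of MHC class I, AP-1 and immediate early, p53 target, cell cycle arrest, adipogenic, S phase, G2 and mitosis, endothelial and immune genes and in that of CD34-related sialomucins, 0 members passed, and their medians lay between -0.03 and 0.40. With 1.31% of all genes called in either direction, a count of 0 in lists of 5 to 52 tested genes does not set them apart from the background. The S phase list had 40 of 42 genes above 0 (median 0.16).

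Differentiating cells were rarer among double-positive than among double-negative cells in 5 of the 6 samples. They made up 3.90%, 41.6% and 9.87% of double-positive cells of the young replicates against 5.67%, 30.2% and 11.05% of double-negative cells. In the old replicates they made up 0.473%, 14.7% and 39.0% against 2.44%, 36.1% and 63.9%. Young replicate 2, with 77 members, was the exception. These shares are over all cells of each class and are not matched on depth, with median totals in that sample of 21906 UMIs in double-positive and 16260 in double-negative cells. At matched depth and 5000 UMIs, Myog-positive cells of that sample were 18.2% of double-positive and 23.4% of double-negative cells. The share of differentiating cells therefore moved with the main contrast, and that contrast was repeated after they had been left out, as an alternative added after seeing the data.

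Without differentiating cells, 195 genes (1.57% of 12433 tested) differed, 132 higher (1.06%) and 63 lower (0.507%), by the same edgeR test. Of the 60 genes that rose in the full comparison, 35 (58.3%) rose again, making up 26.5% of the 132, whereas 10 of the 109 that fell (9.17%) fell again, 15.9% of the 63. The cells left out were defined by sarcomere genes and Myog, so smaller differences in these lists follow from the filter and are no finding. The sarcomere list then had a median of -0.52 with 15 of 16 tested genes below 0 and 0 passing, and the commitment list a median of -0.51 with all 15 below 0. Mymk, the fusion protein myomaker, fell in that list by 1.17 (SE 0.22, edgeR adjusted p = 0.0182). Mymk was lower in 4 samples and higher in double-positive cells of young replicates 1 and 3, where both classes were at 0.635 CPM or below. Mb was at -0.29 (adjusted p = 0.881) and Myh1 at -0.26 (adjusted p = 0.773), and Mybph turned to 0.48 (adjusted p = 0.752). Of the 12 named genes that fell, 3 remained past the threshold by edgeR: Nmrk2 at -1.11 (adjusted p = 0.0176), Ppp1r27 at -0.84 (adjusted p = 0.00724) and Diablo at -0.27 (adjusted p = 0.0349). Nmrk2 rested on old replicate 2 (20.5 against 45.7 CPM), with no more than 0.941 CPM in either class of the other samples, 3 of which went the other way. Ppp1r27 also had its higher levels in old replicate 2 (26.4 against 49.9 CPM), with no more than 4.42 CPM in the other samples. Diablo was lower in all 6.

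Of the 12 named genes that rose, 11 remained past the threshold without differentiating cells, all but Pdlim2 (adjusted p = 0.201). Prkcb was near the floor in young replicates 2 and 3 (0.929 against 0.926 and 0.606 against 0.337 CPM) and low in old replicate 2 (3.82 against 2.62 CPM). In the other samples its level was 30.6 CPM or more in both classes. Igfbp6 had a log2 change of 0.96 (SE 0.12, edgeR adjusted p = 0.000563), Nqo1 0.63 (SE 0.07, adjusted p = 0.000623), Nid1 0.46 (SE 0.06, adjusted p = 0.00138) and Ly6e 0.64 (SE 0.09, adjusted p = 0.00724). Ly6c1 was at 1.91 (SE 0.21, edgeR adjusted p = 0.00134). Among list genes, Procr, a receptor for protein C found on stem cells (0.90), Alcam, an adhesion molecule (0.27), Abcg2, the side population transporter (0.26), Dcn (2.19) and Col6a3 (1.41), both matrix genes, and Klf4, a transcription factor (0.32), now rose, with edgeR adjusted p-values from 0.0165 to 0.0496. Procr, Alcam and Abcg2 were the 3 called of 23 stem and progenitor surface markers, beside 1.06% of all genes called higher. Of those 23 markers 14 were above 0 and 9 below (median 0.22, lowest -0.68). Col6a3 rested on old replicate 3 (25.9 against 5.68 CPM) and was under 6 CPM in both classes of the other samples, and Dcn was under 4 CPM in all. Of the list genes that rose over all matched cells, Ifitm3 was now at 0.07 (adjusted p = 0.396), Sdc3 at 0.22 (adjusted p = 0.231) and Pdgfrb at 0.92 (adjusted p = 0.0896) by edgeR. Sparc at 0.21 (adjusted p = 0.0132), Cxcl1 at 1.41 (adjusted p = 0.0187), Gsn at 0.22 (adjusted p = 0.0310) and Col1a1 at 1.48 (adjusted p = 0.0332) remained past the threshold by edgeR. Hes1, a Notch target, fell by 0.30 (edgeR adjusted p = 0.0331) and Hmgb2, a chromatin protein of dividing cells, by 0.20 (edgeR adjusted p = 0.0342). Hes1 was the 1 called of 17 myogenic progenitor genes, of which 15 were below 0 (median -0.19), beside 0.507% of all genes called lower. The S phase list was balanced (21 of 42 above 0, median 0.00) and the G2 and mitosis list leaned lower (46 of 52 below 0, median -0.10).

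**Figure D3:**
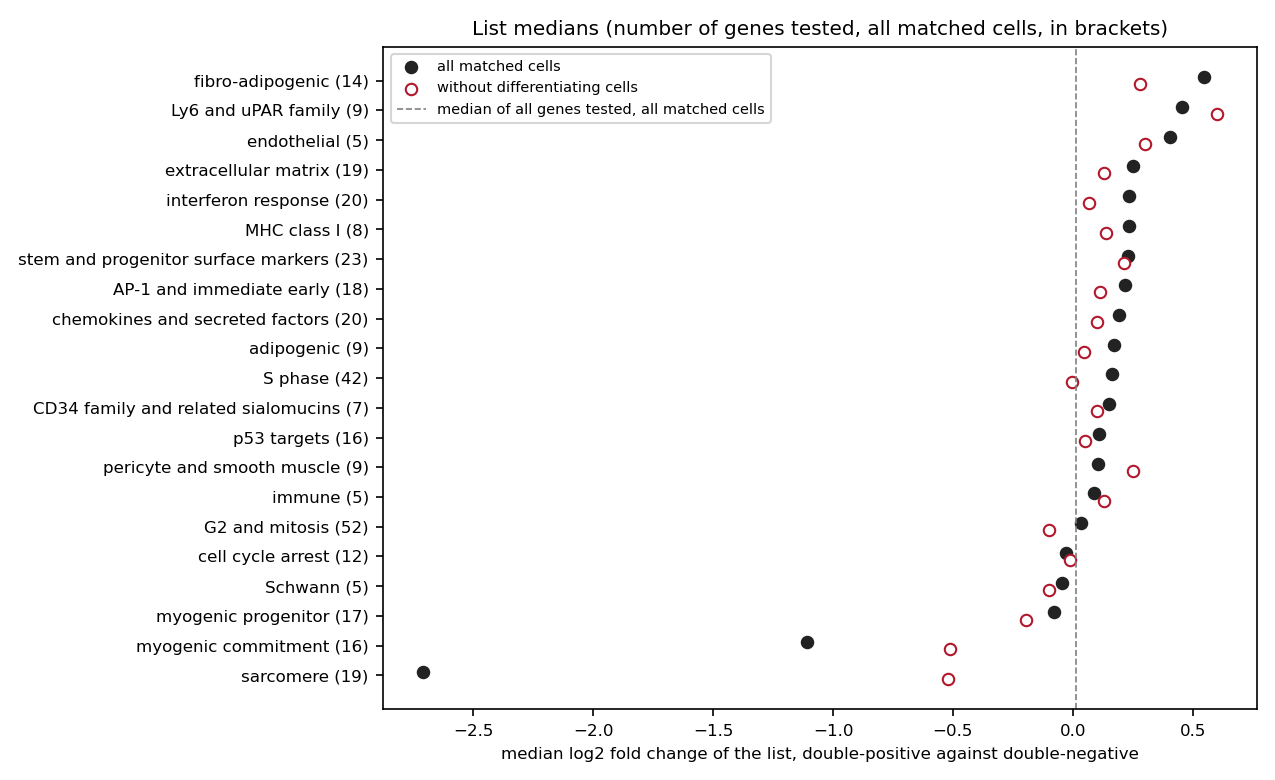
Median log2 fold change of each gene list, double-positive against matched double-negative cells. Filled points use all matched cells and open points leave out differentiating cells, and the dashed line is the median of all genes tested. The sarcomere list moves from -2.71 to -0.52 and the commitment list from -1.11 to -0.51, shifts set in part by the filter, which used sarcomere genes and Myog. The Ly6 and uPAR family is at 0.46 and 0.60.

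Measured per cell at 5000 UMIs, the sarcomere list contributed 3.34, 12.5 and 2.63 UMIs in double-positive cells of the young replicates and 1.94, 3.98 and 15.8 in those of the old. In double-negative cells it contributed 5.68, 30.6 and 4.99 UMIs across the young replicates and 5.54, 32.8 and 116 in the old. The list was lower in double-positive cells of 6 of 6 samples. The mean difference was -25.9, and it ran from -30.6 to -11.1 with 1 sample left out. The exact sign-flip permutation p was 0.03125 over 6 samples, the smallest possible, and 0.135 after adjustment over 13 measures. Commitment genes contributed 1.27, 11.2 and 1.499 against 2.04, 15.3 and 1.74 UMIs across the young replicates and 1.12, 7.85 and 12.2 against 3.46, 17.2 and 27.8 in the old, also lower in 6 of 6 samples with the same exact p-values. Cells with a Myog UMI made up 1.299%, 18.2% and 2.54% of double-positive against 1.299%, 23.4% and 5.65% of double-negative cells in the young, and 0.354%, 6.15% and 20.3% against 2.12%, 28.2% and 61.5% in the old. This was lower in 5 samples and equal in young replicate 1 (adjusted exact permutation p = 0.135).

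The fibro-adipogenic list was higher in 5 of 6 samples, at 1.70, 3.91 and 1.86 against 1.58, 3.32 and 1.70 UMIs across the young replicates and 1.53, 2.23 and 3.00 against 1.63, 1.79 and 2.32 in the old (adjusted exact permutation p = 0.135). Cells scored in S or G2/M phase made up 61.0%, 67.5% and 80.6% of double-positive cells across the young replicates and 65.9%, 37.8% and 65.0% in the old, against 50.6%, 57.1% and 86.7% and 67.3%, 28.2% and 62.4% of double-negative cells. They were a higher share in 4 samples and a lower one in young replicate 3 and old replicate 1 (adjusted exact permutation p = 0.305). The mean difference of 4.25 percentage points was -1.99 without differentiating cells. The myogenic progenitor list was lower in 3 of 6 samples (mean difference -0.098, adjusted exact permutation p = 0.853). Without differentiating cells that list was lower in 6 of 6 (mean difference -0.322, adjusted exact permutation p = 0.1625). Median genes per cell at 5000 UMIs were 1822 to 2090 in double-positive and 1830 to 2073 in double-negative cells, and higher in double-positive cells of 5 samples (adjusted exact permutation p = 0.174). The mitochondrial share of UMIs was 1.86 to 3.09% in double-positive and 1.99 to 3.07% in double-negative cells. None of the 13 measures had an adjusted p below 0.05. With 6 samples the exact sign-flip p cannot go below 0.03125 before adjustment, so the test had little room to pass any measure.

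**Figure D4:**
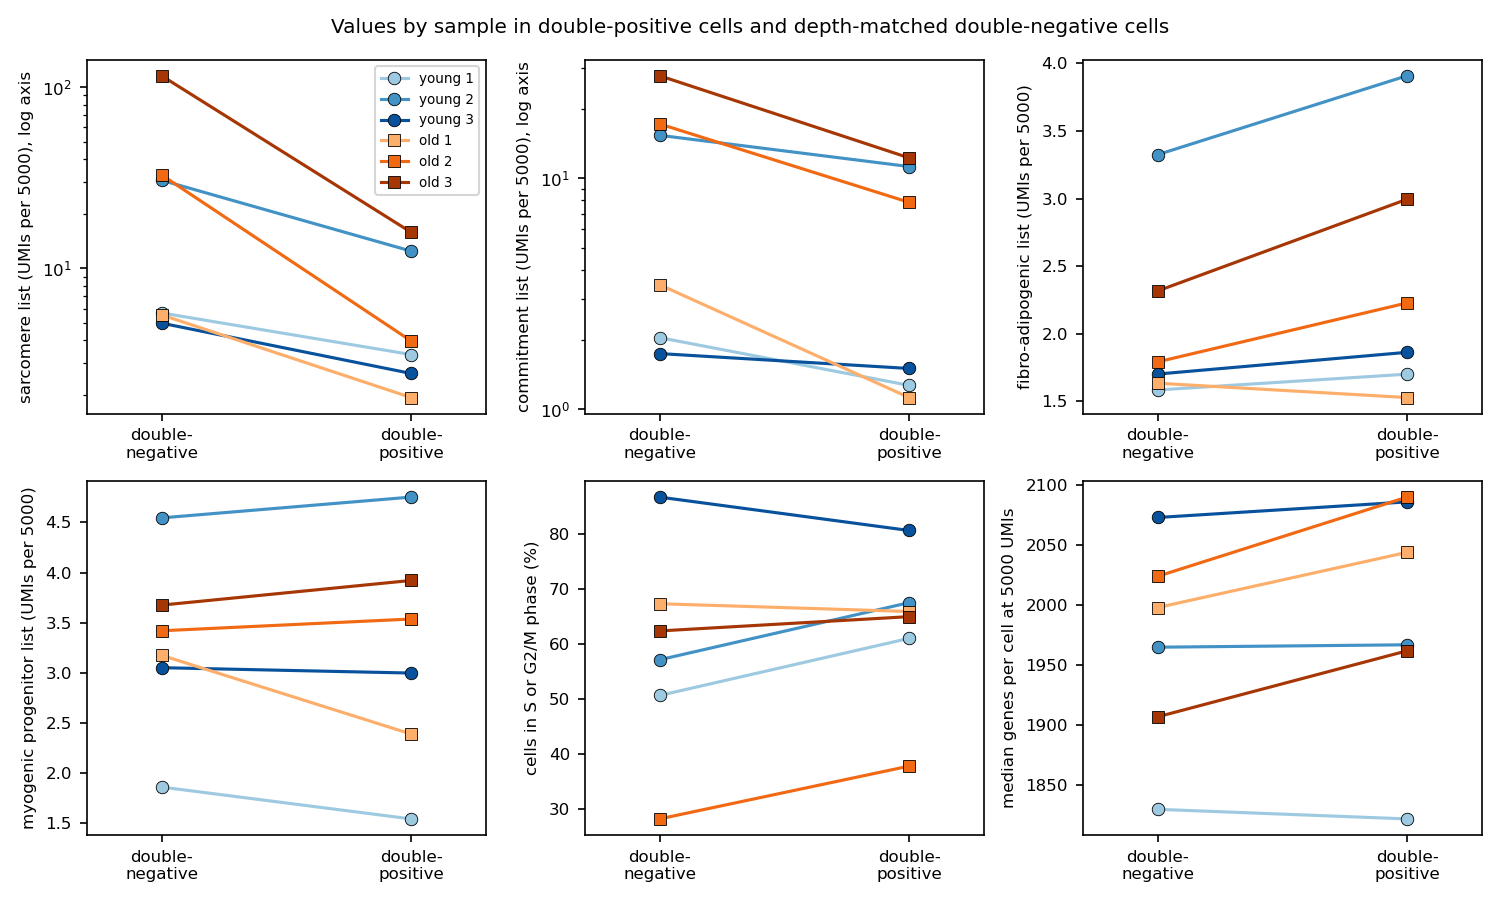
Values per sample in double-positive cells and in depth-matched double-negative cells, for 6 of the 13 measures (circles young, squares old, a line joins the 2 classes of a sample). The sarcomere and commitment panels have log axes, and all 6 lines fall in both, while lines go in both directions in the progenitor and cell cycle panels. Without differentiating cells, which is not plotted, the progenitor list was lower in double-positive cells of 6 of 6 samples.

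Members of the lists of other cell types ranged from undetected to abundant. Acta2, smooth muscle actin, ran from 7.97 to 519 CPM in matched double-positive and from 66.9 to 2035 CPM in double-negative cells (edgeR adjusted p = 0.167), and Gsn is given above. Over all 5136 members, Tyrobp, Adgre1 and Cd3e of the immune list, Robo4, Sox17 and Sox18 of the endothelial list, Sox10 of the Schwann list and Lum of the fibro-adipogenic list had 0 UMIs, and Ptprc had 5. The endothelial genes Pecam1, Cdh5 and Kdr had 54, 19 and 11 UMIs, and the fibro-adipogenic genes Pdgfra, Pi16 and Dpp4 had 117, 5 and 2. Flt1, Tek, Egfl7, Plvap and Eng were the 5 endothelial genes with enough counts to be tested between matched classes. Of these 5, 4 were above 0 (median 0.40) and 0 passed, beside 1.31% of all genes tested. The pericyte gene Rgs5 had 209 UMIs, 171 of them in young replicate 3. Cd68 of the immune list stood at 10.9, 0 and 1.22 CPM in matched double-positive against 7.29, 1.08 and 1.23 CPM in double-negative cells of the young replicates, and at 4.20, 5.75 and 1.41 against 6.18, 3.53 and 1.42 CPM in those of the old. Myod1 had 32462 UMIs over all members, 20351 of them in old replicate 2, 9777 in old replicate 3 and 60 in young replicate 1. Des, the muscle intermediate filament gene, had 7138, of which 4394 were in old replicate 3. Its level was 16.4, 370 and 2.09 CPM in members of the young replicates and 9.27, 30.8 and 288 CPM in those of the old. The summed endothelial list ran from 0.0455 to 0.282 UMIs per 5000 in double-positive and from 0.0325 to 0.675 in double-negative cells. The immune list ran from 0.0199 to 0.0714 and from 0.00612 to 0.0779, and the fibro-adipogenic list from 1.53 to 3.91 and from 1.58 to 3.32. The pericyte and smooth muscle list ran from 0.121 to 2.50 and from 0.502 to 10.7 UMIs, and was lower in double-positive cells of 5 of 6 samples, all but young replicate 3 (mean 1.31 against 3.86, adjusted exact permutation p = 0.135). Its mean difference of -2.55 ran from -3.06 to -1.42 with 1 sample left out. This sum weighs genes by their counts, and 5 of the 9 genes tested singly were above 0 (median 0.11). The Schwann list ran from 0.0130 to 0.0793 and from 0.0584 to 0.141 UMIs and was lower in 6 of 6 samples (adjusted exact permutation p = 0.135). Without differentiating cells its mean difference turned to 0.00815, with 4 samples lower and 2 higher. The part of either in the differences of the sarcomere and commitment lists was not tested.

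Cells with 1 of the 2 transcripts were compared with the same double-negative reference in a fit of 4 classes per sample, with 73 to 1055 cells per class matched on total UMIs. Both comparisons share the double-negative cells. Cells with Ly6a and no Cd34 differed in 106 genes (0.835%), with 27 genes higher (0.213% of 12689) and 79 lower (0.623%), and cells with Cd34 and no Ly6a in 215 genes (1.69%), with 26 higher (0.205%) and 189 lower (1.49%), by edgeR's quasi-likelihood test at an adjusted p below 0.05. Both counts rested on single samples. For Ly6a-only cells 53 genes passed when young replicate 1 was left out, 8 when old replicate 2 was and 11 when old replicate 3 was. For Cd34-only cells these fits gave 133, 87 and 8 genes. Of 19 sarcomere genes all were below 0 in each comparison, with 7 passing for Ly6a (median -1.87) and 14 for Cd34 (median -1.99). Myh3 fell by 2.21 (SE 0.34, adjusted p = 0.00593) in Ly6a-only and by 2.58 (SE 0.36, adjusted p = 0.00125) in Cd34-only cells by edgeR. Of 16 commitment genes 2 fell in Ly6a-only cells and 4, including Myog, in Cd34-only cells.

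In Ly6a-only cells the genes that rose included Ephx1, an epoxide hydrolase (0.65, adjusted p = 0.000542), the glutathione transferases Mgst1 (0.64, adjusted p = 0.00277) and Gstm1 (0.40, adjusted p = 0.0474), the protease Bmp1 (0.40, adjusted p = 0.0190) and the scaffold Slc9a3r1 (0.40, adjusted p = 0.00670), by edgeR. Mgst1 was at 0 in every class of young replicate 2. Ly6c1 rose by 1.79 (SE 0.31, edgeR adjusted p = 0.00681) in Ly6a-only cells and had a log2 change of 0.04 (SE 0.35, adjusted p = 0.994) in Cd34-only cells. Ly6e was at 0.47 (SE 0.12, edgeR adjusted p = 0.0900) with Ly6a alone and at 0.10 (SE 0.13, adjusted p = 0.778) with Cd34 alone. In Cd34-only cells the mannosidase Man1a (0.44, adjusted p = 0.0193), the dystrobrevin Dtnb (0.40, adjusted p = 0.0216), the matrix protein Ltbp2 (0.85, adjusted p = 0.0274) and Rpl39l were among those that rose by edgeR. The differences between the single-positive classes were not tested. Rpl39l, a ribosomal protein paralog, had 0 counts in all classes of 5 samples, and in old replicate 3 it stood at 145 CPM in double-positive, 110.4 CPM in Cd34-only, 41.5 CPM in Ly6a-only and 27.04 CPM in double-negative cells.

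Double-positive cells did not depart detectably from the sum of the 2 single effects. The product term had 0 genes (0%) past the threshold of 12689 by edgeR, with 196 at an unadjusted p below 0.05, and 0 by DESeq2, with 147. A p that misses the threshold does not show that the product term is 0.

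**Figure D5:**
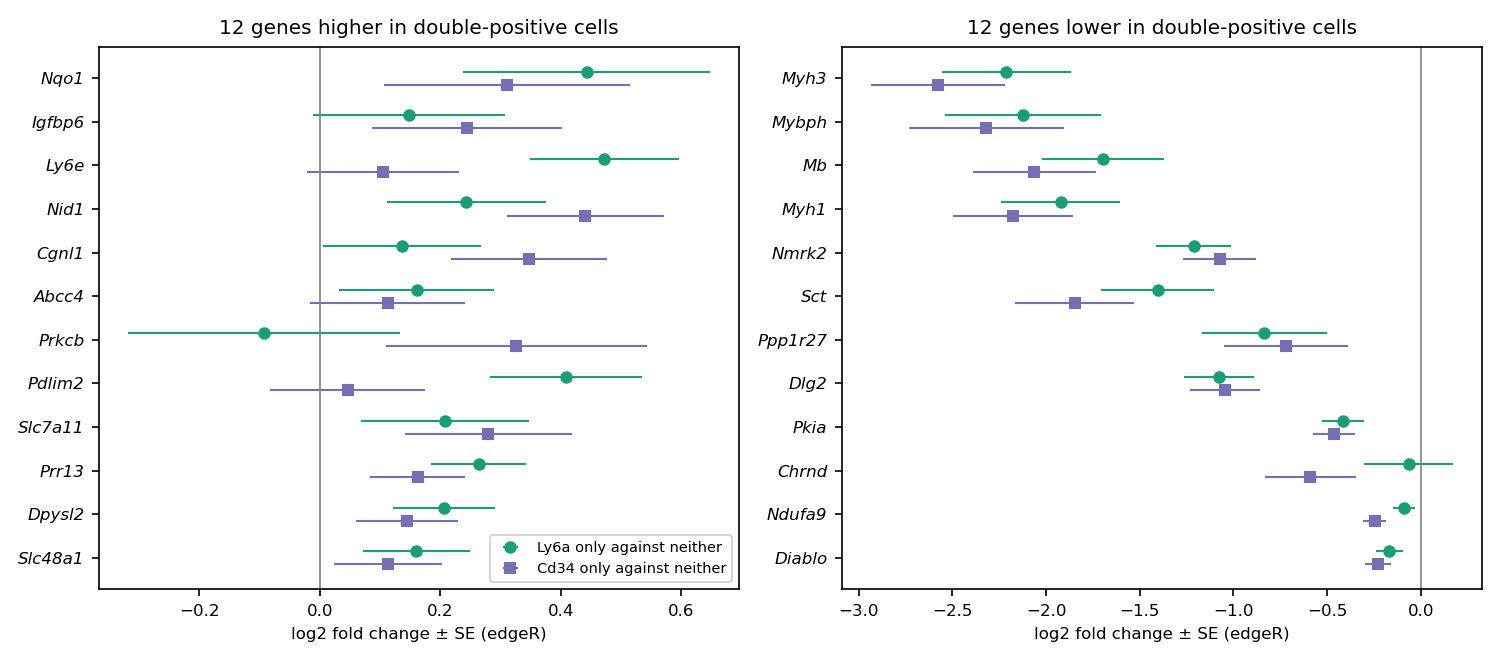
Log2 fold changes with SE for the 24 named genes in cells with Ly6a only (circles) and Cd34 only (squares), each against cells with neither, from the fit of 4 classes. Values lie more than 1 SE from 0 on the same side as in double-positive cells, except Igfbp6, Prkcb and Chrnd with Ly6a only and Ly6e, Abcc4 and Pdlim2 with Cd34 only.

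The double-positive effect differed between old and young populations for 15 genes (0.116%). The test of the difference between old and young effects had 1 gene higher (0.00775% of 12898) and 14 lower (0.109%) by edgeR, and 0 of the 19 sarcomere genes were above 0 in it (median -2.09), with Tnni1, a slow troponin, passing. Hes6, a helix-loop-helix factor that promotes myogenic differentiation, stood at 56.5, 164 and 303 CPM in double-positive against 77.1, 197 and 303 CPM in double-negative cells of the young. In the old it stood at 75.7, 439 and 679 against 171, 985 and 1389 CPM. Double-negative cells of old replicates 2 and 3 were the highest, and the difference between ages was -0.99 on the log2 scale (SE 0.10, edgeR adjusted p = 0.00816). Ptn, the growth factor pleiotrophin, stood at 0.607, 5.33 and 22.4 against 0.911, 5.38 and 28.3 CPM across young replicates and at 15.9, 28.8 and 4.08 against 5.16, 11.005 and 1.87 CPM in the old. It was lower in double-positive cells of the 3 young samples and higher in those of the 3 old ones, with a difference of 1.68 (SE 0.21, edgeR adjusted p = 0.0137). Cavin4, a muscle caveolar protein, differed by -1.29 (SE 0.14, adjusted p = 0.00954), Tnni1 by -2.39 (SE 0.27, adjusted p = 0.0270), Srl, a sarcoplasmic reticulum protein, by -1.43 (SE 0.21, adjusted p = 0.0270), Aamdc by -1.09 (adjusted p = 0.0270) and Prune2 by -1.16 (adjusted p = 0.0389) by edgeR. Without differentiating cells the differences were -0.64 for Hes6 (adjusted p = 0.794), -0.32 for Cavin4 (0.975), -0.77 for Tnni1 (0.726), -0.63 for Srl (0.828), -0.47 for Aamdc (0.321) and -0.84 for Prune2 (0.901) by edgeR, none past the threshold, and 1.07 for Ptn (adjusted p = 0.0320). The 15 genes became 0 with up to 5 double-negative cells per member and 2 without the top 10% of UMIs, but 88 by DESeq2. They became 1 with at least 2 UMIs of each gene. They became 2 in a fit thinned to 5000 UMIs, which chose classes anew on thinned counts and took all double-negative cells unmatched. These last 2 fits also left out young replicate 2, which had too few cells. The number also turned on single samples: it was 0 without young replicate 2 or 3 and 9 without replicate 1 of that group. Leaving out old replicate 3 gave 43 and old replicate 1 gave 545.

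Double-positive cells of old and young populations were also compared directly, with all members of a sample summed and the gene list used for counting as a term. By edgeR 4 genes were higher in old (0.0319% of 12532 tested) and 0 lower. An unadjusted p below 0.05 was seen for 453 genes, and DESeq2 had 62 higher and 13 lower. Alox5, a lipoxygenase of leukotriene synthesis, had 0 counts in the members of all 3 young samples and 16.0003, 66.6 and 82.8 CPM in those of the old (edgeR adjusted p = 0.0452). Cyba, an NADPH oxidase subunit, was at 0 across young replicates and at 2.34, 117 and 137 CPM in the old, with replicate 1 far below replicates 2 and 3 (edgeR adjusted p = 0.0452). Gpx3, a secreted glutathione peroxidase, was at 0 across young replicates and at 12.9, 52.6 and 39.7 CPM in the old (edgeR adjusted p = 0.0452). Fgf13, an intracellular fibroblast growth factor homolog, had 0, 1 and 3 counts across the young replicates and 4.29, 42.3 and 30.7 CPM in the old (edgeR adjusted p = 0.0433). The 4 genes were low in all young cells and not in the members alone, at 0 to 1.82 CPM over all kept cells of the young samples and at 2.51 to 109.6 CPM over those of the old. With 1 sample left out, 8 genes passed without young replicate 2, 2 without old replicate 2, and 0 in each of the other 4 fits.

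Levels of other listed genes did not pass in this comparison, and their lists are given by counts. Of 8 MHC class I genes 7 were above 0 in old members (median 1.03), of 20 interferon response genes 16 (median 0.64), of 16 p53 targets 14 (median 0.53) and of 9 Ly6 and uPAR family genes 8 (median 1.00), beside a median of 0.02 over all genes. Of 42 S phase genes 31 were below 0 (median -0.18) and of 52 G2 and mitosis genes 35 (median -0.14). Cdkn2a, the cell cycle inhibitor locus, stood at 12.1, 19.2 and 7.16 CPM in young and 158, 40.9 and 461 CPM in old members (log2 change 4.10, edgeR adjusted p = 1.00), and its neighbour Cdkn2b at 101, 68.2 and 78.3 CPM in young and 35.3, 17.7 and 20.7 CPM in old members (log2 change -1.84, edgeR adjusted p = 0.120). The 3 young samples lay above the 3 old ones for Cdkn2b and below them for Cdkn2a. The same order held over all kept cells and not in the members alone. There Cdkn2a stood at 12.2, 12.7 and 7.29 CPM in young and 107, 32.5 and 500 CPM in old samples. Cdkn2b stood at 96.4, 46.3 and 71.7 CPM in young and 30.9, 12.7 and 16.1 CPM in old samples.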

How the data were processed

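The authors deposited raw UMI counts per gene and barcode for 6 libraries, made with Cell Ranger 7.0.0 (young and old replicates 1, 21849 features) or 7.2.0 (the other 4, 32285 features), per the file headers. The submitters' processing notes list Cell Ranger 7.2.0, Seurat and mm10. The treatment of intronic reads and the cell calling are not given in the sources used here. Library totals were 133974782 to 196481316 UMIs, and intervals and floors cover counting error only.

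Genes shared by both feature lists were used. Cells of 5000 or more UMIs and under 15% mitochondrial UMIs were kept. No doublet caller was run and no doublets were removed; an alternative left out the top 10% of UMIs per sample. Sums per sample and class went into the quasi-likelihood test of edgeR 4.0.16 under R 4.3.3, with TMM scaling, the filterByExpr filter, Benjamini-Hochberg adjustment and the sample as a term. DESeq2 1.42.0 was an alternative. Since nothing says how the populations were derived from animals, p-values measure the spread between these samples. Matching and thinning were random draws with fixed seeds; a sample with fewer than 10 matched members was left out. Phases were scored with scanpy 1.11.5. The fits were tested on simulated data.

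Named genes were every gene of 21 lists, and for double-positive against double-negative cells the 12 largest changes in each direction with an adjusted p below 0.05, mean log2 CPM above 4 and one sign in all 6 samples. For the other fits up to 5 each way were named. One result that this rule would name is not reported here. The members and lists were chosen with earlier results of these data known.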

Additional observations from a re-analysis of the deposited data

Results flagged for a closer look

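The effect of double-positive status differed between old and young populations for 15 genes by edgeR's test of that difference at an adjusted p below 0.05. The count was 0 with up to 5 double-negative cells per member, 2 without the top 10% of UMIs and 0 without young replicate 2 or 3. It was 2 after thinning, with classes chosen anew and unmatched, and 1 with at least 2 UMIs of each gene. Both fits also left out young replicate 2. Values are log2 differences, old effect minus young effect. The 14 negative ones were Tnni1 (-2.39), Cobl, an actin nucleator (-1.96), Cdk5r1, a kinase activator (-1.77), Ldb3, a Z-disc protein (-1.66), Srl (-1.43), Cavin4 (-1.29), Prune2 (-1.16), Aamdc (-1.09), Hes6 (-0.99), Pkig (-0.82), Cirbp, a cold-inducible RNA-binding protein (-0.79), Gadd45g (-0.71), Eno3, muscle enolase (-0.46), and Cox8a (-0.31). Ptn was the positive one (1.68). Cdk5r1, Cobl and Cirbp were higher in double-positive cells of all 3 young and lower in those of all 3 old samples. Without differentiating cells, Pkig (-0.45), Ptn (1.07) and Cdk5r1 (-1.32) had adjusted p-values of 0.0320, 0.0320 and 0.0464, and the other 12 were above 0.05.

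A LACZ transcript, present in the feature list of young and old replicates 1 alone, lies outside every comparison. It had 64 UMIs in the 154 double-positive cells of young replicate 1 (19.4 CPM, found in 33.1% of cells at a median of 18999 UMIs) and 2142 UMIs in the 6561 cells with neither transcript (22.1 CPM, 26.002% of cells at a median of 13139 UMIs). In old replicate 1 it had 0 UMIs in the 1056 double-positive cells, which allows a share of up to 0.284% of cells with a UMI. It also had 0 UMIs in the 2580 cells with neither transcript of that sample, which allows up to 0.116%. Groups of 3 samples are too small for a test of outlying samples.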

How the results depend on the processing

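Genes past the threshold between double-positive and double-negative cells numbered 169, and 327 by DESeq2, 379 with at least 2 UMIs of each gene, 548 after thinning (young replicate 2 left out of both), 81 in the 4 samples of the longer gene list, 65 in the other samples, 18 in young and 401 in old samples alone, and 42 to 395 with 1 sample left out. The thinned fit is not the matched contrast. It chose both classes anew on thinned counts, and matched no cells. It set 23 to 523 members per sample beside 4932 to 10401 double-negative cells. For the age difference the 15 became 88 by DESeq2, 36 with no filter and 0 with up to 5 double-negative cells per member. They became 1 with at least 2 UMIs and 2 after thinning, again with young replicate 2 left out of both. The count was 2 without the top 10% of UMIs, 248 with the longer list, and 0 to 545 with 1 sample left out. The shorter list could not be fitted. For old against young members the 4 became 75 by DESeq2, 17 with no filter, 0 without the gene list term and 0 with the longer list. They became 15 with at least 2 UMIs (young replicate 2 left out), 1 without the top 10%, and 0 to 8 with 1 sample left out. Ly6a-only counts ran from 8 (without old replicate 2) to 127 and Cd34-only counts from 8 (without old replicate 3) to 226. The cause of these changes was not tested. The share difference stayed positive in every alternative run, at 1.62 to 4.14 with 1 sample left out.

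With the replicate number as a block, 226 genes passed for the age difference, 8 for old against young, and the share difference, again a description, was 3.00 percentage points. Same-numbered samples had correlations of 0.396, 0.291 and -0.051, and the other pairs of a young and an old sample -0.409 to 0.197. The labels do not say that equal numbers share anything, and the numbers were not taken to pair samples. Without the sample term (no replicate block) 0 genes passed between double-positive and double-negative cells by edgeR, with 50 at an unadjusted p below 0.05.

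Of the differences per sample, cycling cells turned to -5.92 with at least 2 UMIs, -0.448 in bins of 0.1 log2 and -1.99 without differentiating cells. The endothelial list turned to 0.0161, 0.0101 and 0.0415 under the same settings and 0.0202 in another draw, and ran from -0.0601 to 0.0363 with 1 sample left out. The immune list turned to 0.00117 with at least 2 UMIs and 0.00532 without the top 10%, and ran from -0.00902 to 0.00413. Pax7-positive cells turned to -2.97 with at least 2 UMIs and -0.454 without differentiating cells, and ran from -1.69 to 2.04. The Schwann list turned to 0.00815 and Mybph to 0.48 without differentiating cells, and the progenitor list ran from -0.167 to 0.0399. Of 728 values for 38 named genes under all alternatives, 414 kept direction and threshold, 313 kept direction alone and 1 reversed. Sums of few members, 77 in young replicate 2, limit the precision there.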

Other observations

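These values were looked at after the data had been seen, and no test of a list or chromosome was made. Nuclear genes of the respiratory chain and ATP synthase, picked by symbol, were looked at as a group. All 81 tested had a log2 change below 0 (median -0.14), with Ndufa9, Uqcrc2 and Ndufv1 passing edgeR's test (3 of 81, beside 0.845% of all genes called lower), where 5997 of all 12898 genes were below 0. Without differentiating cells 79 of 81 were below 0 (median -0.11) and 10 passed, beside 0.507% of all genes. Relative to the median of all genes above a log2 CPM of 4, the list's median was 0.01, -0.07 and 0.01 across the young replicates and -0.14, -0.26 and -0.33 in the old. The difference between ages was not tested. Of 78 cytosolic ribosomal protein genes 67 were below 0 (median -0.03), and without differentiating cells 76 were (median -0.06), with 6 called lower and Rpl39l higher.

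Chromosome 15, which holds Ly6a, had the highest median log2 change of the 20 chromosomes with at least 100 such genes (0.07 over 258 genes, next highest 0.04 on chromosome 5). Centred on each sample's median over all genes it was 0.08, 0.10 and 0.01 across the young and 0.07, 0.13 and 0.06 in the old replicates, and it ranked first in 4 samples, second in old replicate 1 and ninth in young replicate 3. The 8 of 258 chromosome 15 genes that rose were Dap, Samd12, Ly6e, Pmm1, Slc48a1, Igfbp6, Mfsd5 and Prr13. Over the genome 39 of 6506 genes above a log2 CPM of 4 rose. Chromosome 1, which holds Cd34, had a median of 0.00 over 386 genes. It ranked first in old replicate 1 (centred median 0.11) and from 5 to 18 in the other samples.

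Anxa3, an annexin, had the lowest adjusted p among genes that rose without differentiating cells (log2 change 0.86, SE 0.07, edgeR adjusted p = 2.4e-06). Over all matched cells it stood at 0.303, 24.5 and 1.86 CPM in double-positive against 0, 68.3 and 0.934 CPM in double-negative cells of the young, and at 249.7, 303 and 127 against 161, 146 and 61.3 CPM in the old (log2 change 0.58, edgeR adjusted p = 0.418). Young replicate 2 alone went the other way.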
